A study of Homo sapiens with 8 samples.

Results

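Kinesins are motor proteins that use ATP to act on microtubules. A group of them builds and orders the mitotic spindle, moves chromosomes and completes cell division, and their genes are switched on for G2 and mitosis. Others carry vesicles, organelles and RNA along microtubules in cells that do not divide, neurons above all, and several serve cilia or the microtubule lattice itself. Inhibitors of the spindle motor KIF11 are used to arrest dividing tumour cells.

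The kinesin motor family was taken here as the genes named KIF with a number and an optional letter A to C, together with KIFC1, KIFC2 and KIFC3. There were 42 such genes among the 58735 of the table. By known role, 14 were listed as mitotic, 17 as transport motors and 11 as others, which act in cilia, at centrioles or on microtubule ends, or are poorly known. CENPE, a mitotic kinesin whose name falls outside the rule, is given with the partner genes.

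The 8 samples were RNA-seq libraries of LN229 cells, a long-established line from a human glioblastoma. In 4 of them the cells had received bortezomib (7.5 nM), a proteasome inhibitor, plus panobinostat (15 nM), a histone deacetylase inhibitor, for 48 h, called the combination here. The other 4 had received DMSO, the solvent; a further label calls these controls untreated. Whether the samples in a group were separate cultures is not stated, so the p-values reflect how these samples vary, and that variation may be only technical. No sample received a single drug, so the parts of the drugs cannot be told apart.

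Levels are FPKM (reads scaled to gene length and to the depth of the library), as deposited. Reads on genes numbered 15189251 to 17324292 per sample. Mitochondrial genes took 11.7% to 15.1% of reads after the combination and 4.31% to 6.69% in DMSO, and their part in the results was not tested. Glioma markers served to check the labelled line: of 7 tested, 4 were lower and 1 was higher after the combination. Among all genes tested, 41% were lower and 36.9% higher. The lower markers were VIM, NES, S100B and SOX2. OLIG2 was higher, at 3.50 FPKM after the combination and 2.34 FPKM in DMSO, and CD44 and EGFR were not called. VIM averaged 116 FPKM after the combination and 315 FPKM in DMSO, NES 58.6 FPKM after the combination and 188 FPKM in DMSO, and S100B 17.8 FPKM after the combination and 257 FPKM in DMSO, while GFAP was below 1 FPKM in both groups. Immune markers summed to 0.567 to 1.12 FPKM after the combination and 0.135 to 0.481 FPKM in DMSO. Endothelial markers summed to 0.905 to 1.10 FPKM after the combination and 0.146 to 0.242 FPKM in DMSO. All 3 were called higher in limma without the filter on low values, where 20% of 38736 genes were called higher. The part of these markers in the results was not tested.

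Genes were tested where their mean over all 8 samples was at least 1 FPKM. That held for 30 of the 42 kinesin genes, namely 12 mitotic, 14 transport and 4 other genes. A gene was called at an adjusted p under 0.05, from limma on log2(FPKM + 1) and adjusted by Benjamini-Hochberg across the 13296 genes that passed. On this scale the change of a weakly expressed gene comes out too small, so the ratio of the mean FPKM is given as well.

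Transcripts of the tested mitotic kinesins were much lower after the combination, while those of the transport kinesins changed less and in both directions. All 12 tested mitotic genes were lower, at 2.14% to 12.9% of their DMSO mean. Among all genes tested, 41% were called lower, 36.9% higher, and 11.1% lower by at least 2-fold; each of the 12 mitotic genes was lower by at least 2-fold. KIF14, KIF15 and KIF18A passed the filter only through the DMSO samples, so their direction was fixed by it, as it was for KIF24 of the other class. The median log2 fold change of the tested mitotic genes was -3.39, against -0.03 for all genes tested. Of the 14 tested transport genes 6 were higher and 5 lower, with a median of 0.09 and no change of 2-fold on this scale.

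The groups did not overlap for any of the 12 tested mitotic genes or for 11 of the 14 tested transport genes, where 72.7% of all genes tested had groups apart. On the log2(FPKM + 1) scale, size rather than the call separated the mitotic from the transport genes. There, 347 of all 13296 genes (2.61%) fell at least as far as KIF18A, the mitotic kinesin with the smallest decrease. This scale holds back weakly expressed genes. KIF24 of the other class had a log2 fold change of -1.53, though it kept only 8.55% of its DMSO mean, less than KIF18A. The direction of KIF18A was fixed by the filter. Among the mitotic genes for which it was not, KIF23 had the smallest decrease, and the 200th lowest log2 fold change of all genes tested. KIF20A had the 4th lowest.

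**Figure D1:**
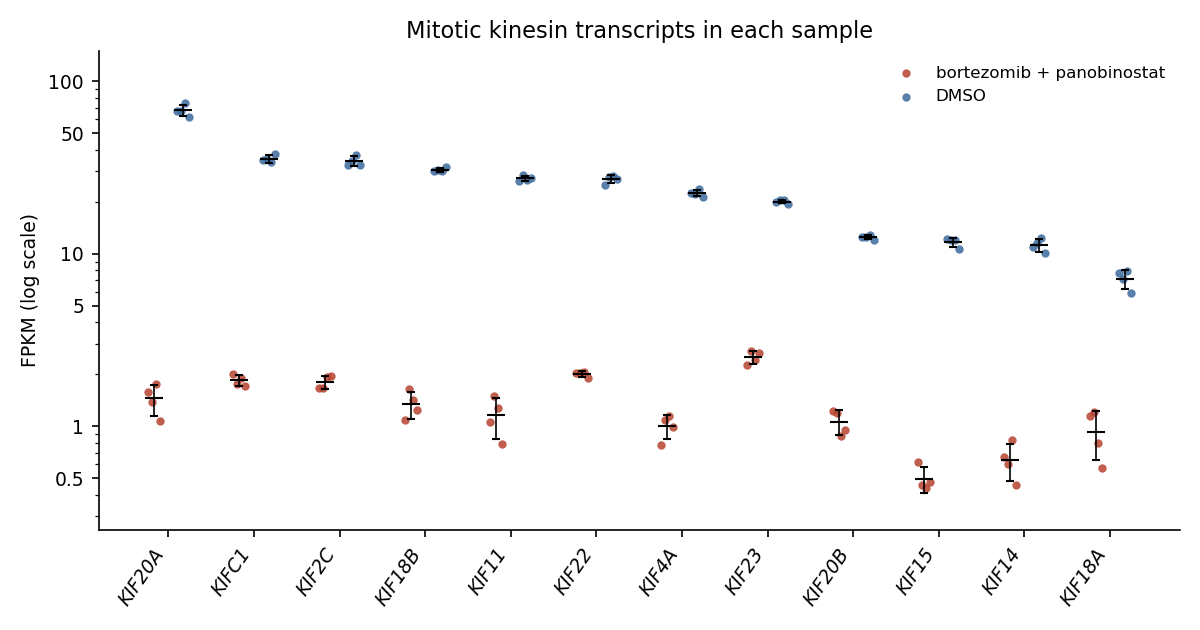
FPKM of the 12 tested mitotic kinesin genes (log axis), ordered by their DMSO mean, with 4 points per group for the combination (left of each pair) and DMSO (right); bars give mean ± SD. The groups are apart for every gene, with the combination samples between 0.437 and 2.71 FPKM and the DMSO samples between 5.89 and 74.7 FPKM.

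Motors of the central spindle and of cytokinesis included the most abundant kinesin transcript of the controls. KIF20A carries the chromosomal passenger complex to the central spindle; its gene lies on chromosome 5 (138178719 to 138187715, GRCh38, plus strand). KIF20A stood at 1.57, 1.37, 1.77 and 1.07 FPKM after the combination, against 67.0, 67.5, 74.7 and 61.8 FPKM in DMSO. The lowest control was thus far above the highest treated sample, and the log2 fold change was -4.82 ± 0.0900 (SE, limma adjusted p = 1.29e-10). KIF23, the motor subunit of the centralspindlin complex (chromosome 15, 69414246 to 69448427), had 2.25, 2.71, 2.41 and 2.67 FPKM after the combination. In DMSO it had 19.8, 20.5, 20.4 and 19.5 FPKM, which makes it the mitotic kinesin with the highest level left after the combination (log2 fold change -2.58 ± 0.0482 SE, limma adjusted p = 1.29e-10).

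KIF4A, which binds chromosomes and shortens the central spindle with PRC1, is on the X chromosome (70290090 to 70420832). It stood at 0.782, 1.08, 1.15 and 0.991 FPKM after the combination and at 22.6, 22.1, 23.6 and 21.4 FPKM in DMSO. Of its 31-base words 27.9% also occur in transcripts of other genes, nearly all in those of KIF4B, an intronless copy, so reads of this pair can be shared. KIF14, which recruits the citron kinase CIT to the midbody (chromosome 1, 200551497 to 200620734), had 0.667, 0.603, 0.8292 and 0.455 FPKM after the combination, against 10.9, 11.5, 12.3 and 10.1 FPKM in DMSO. KIF20B, a further cytokinesis motor (chromosome 10, 89701610 to 89774939), had 1.23, 1.20, 0.881 and 0.947 FPKM after the combination, against 12.5, 12.6, 12.9 and 12.01 FPKM in DMSO. Each of these 3 genes kept its groups apart. For KIF4A the fit gave a log2 fold change -3.55 ± 0.0616 SE, limma adjusted p = 9.87e-11. For KIF14 it gave a log2 fold change -2.90 ± 0.0807 SE, limma adjusted p = 1.33e-09, and for KIF20B a log2 fold change -2.71 ± 0.0623 SE, limma adjusted p = 4.11e-10.

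Motors that push spindle poles apart or focus them were lower too. KIF11 (Eg5), which slides antiparallel microtubules to make the spindle bipolar, lies on chromosome 10 (92593286 to 92655395). Its samples had 1.05, 1.504, 1.28 and 0.783 FPKM after the combination, against 26.3, 28.6, 26.7 and 27.5 FPKM in DMSO, or 4.23% of the DMSO mean (log2 fold change -3.72 ± 0.0934 SE, limma adjusted p = 7.05e-10). KIF15, which can back up KIF11 (chromosome 3, 44761717 to 44873376), stood at 0.621, 0.454, 0.437 and 0.472 FPKM after the combination and at 12.2, 11.9, 11.99 and 10.7 FPKM in DMSO. In relation to DMSO the level of KIF15 was close to that of KIF11, at 4.24% (log2 fold change -3.08 ± 0.0592 SE, limma adjusted p = 1.49e-10). KIFC1 (HSET), a motor that moves toward minus ends and clusters spindle poles, is on chromosome 6 (33391536 to 33409924). It had 2.001, 1.75, 1.90 and 1.72 FPKM after the combination, against 34.7, 35.2, 33.8 and 38.0 FPKM in DMSO (log2 fold change -3.68 ± 0.0481 SE, limma adjusted p = 2.74e-11). Exons of another gene on the opposite strand cover 12.7% of the exon length of KIFC1.

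Motors acting on chromosomes and on microtubule plus ends were also lower. KIF2C (MCAK), a microtubule depolymerase at centromeres (chromosome 1, 44739818 to 44767767), had 1.67, 1.67, 1.92 and 1.95 FPKM after the combination, against 32.8, 34.6, 37.5 and 32.6 FPKM in DMSO. KIF22 (Kid), which pushes chromosome arms toward the equator (chromosome 16, 29790719 to 29805385), stood at 2.02, 2.02, 2.07 and 1.90 FPKM after the combination and at 25.1, 28.0, 28.1 and 27.0 FPKM in DMSO. Neither gene had overlapping groups (KIF2C log2 fold change -3.66 ± 0.0562 SE, limma adjusted p = 5.29e-11 and KIF22 log2 fold change -3.22 ± 0.0431 SE, limma adjusted p = 2.88e-11). For KIF22, 13.01% of exon length lies under opposite-strand exons. KIF18B, a plus-end depolymerase of astral microtubules (chromosome 17, 44924709 to 44947711), had 1.09, 1.63, 1.42 and 1.23 FPKM after the combination, against 29.96, 30.7, 29.96 and 31.7 FPKM in DMSO (log2 fold change -3.76 ± 0.0676 SE, limma adjusted p = 1.10e-10). KIF18A, which dampens chromosome oscillation at kinetochores (chromosome 11, 28020620 to 28108308), stood at 1.14, 1.20, 0.798 and 0.575 FPKM after the combination and at 7.71, 7.14, 7.94 and 5.89 FPKM in DMSO. KIF18A had the smallest decrease of the class and the widest error (log2 fold change -2.09 ± 0.122 SE, limma adjusted p = 2.19e-07).

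The remaining mitotic genes had almost no reads. KIF4B had 0, 3, 0 and 0 reads after the combination and 1, 3, 7 and 10 reads in DMSO, and the groups overlap. KIF2B, a depolymerase known mainly from testis, had 0, 2, 0 and 0 reads after the combination and none in DMSO. A tested mitotic gene had at least 36 reads in any treated sample and at least 434 in any control, and their median coefficient of variation stood at 16.7% after the combination, against 5.07% in DMSO. In bulk RNA, fewer dividing cells and less of a transcript per cell cannot be told apart. Markers of cycling cells moved with the mitotic kinesins: all 6 listed were lower, where 41% of all genes tested were. Their summed level was 60.6 to 65.2 FPKM after the combination, against 466 to 499 FPKM in DMSO. CCNB1, the cyclin of mitotic entry, and the proliferation antigen MKI67 had the smallest p of these. Their part in the result was not tested.

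The order of the family by level changed with the treatment. Among the 10 kinesin genes with the highest mean in the combination samples were no mitotic genes, 8 transport genes and 2 others, led by KIF5B and KIF3B. In DMSO the first 10 held 8 mitotic and 2 transport genes, led by KIF20A and KIF5B. After these came KIFC1 and KIF2C, whose DMSO ranges overlap, then KIF18B, and then KIF11 and KIF22, whose ranges overlap as well. Summed over the members, mitotic kinesins took 9.70% ± 0.752 of kinesin FPKM after the combination and 63.9% ± 0.847 in DMSO (SD, n = 4 each).

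The mitotic sum differed more between the groups than the transport sum. The summed level of mitotic kinesins was 16.1, 17.3, 16.9 and 14.8 FPKM after the combination, against 302, 310, 320 and 298 FPKM in DMSO. Transport kinesins summed to 128, 129, 127 and 134 FPKM after the combination and to 142, 144, 148 and 148 FPKM in DMSO. Shares within a sample do not depend on the factor by which its column was scaled, whereas the sums do.

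**Figure D2:**
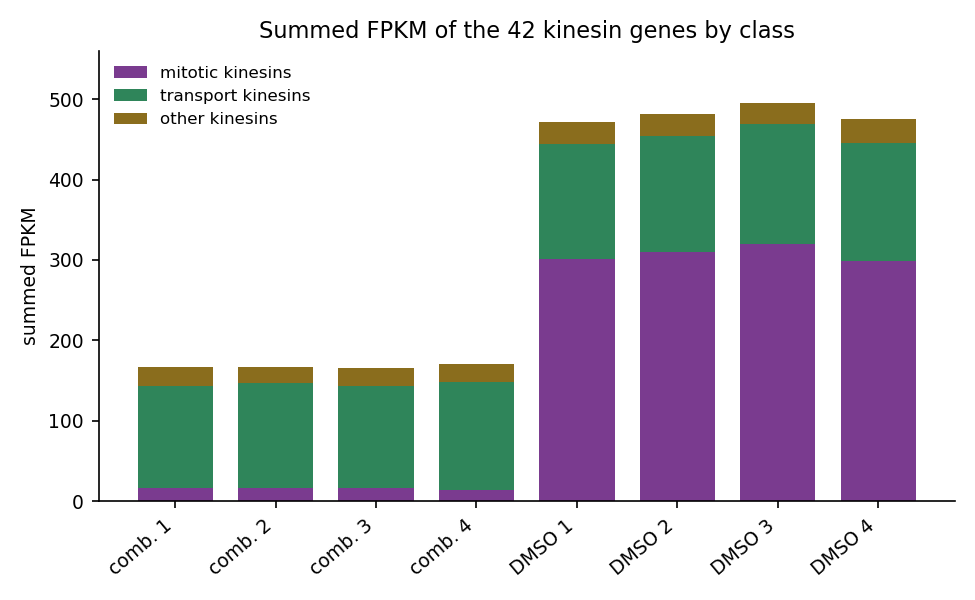
Summed FPKM of all 42 kinesin genes in each of the 8 samples (combination left, DMSO right), split into mitotic, transport and other kinesins; each bar is 1 sample. The mitotic part is 14.8 to 17.3 FPKM in the combination samples and 298 to 320 FPKM in the DMSO samples.

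Promoters were compared because the tested mitotic genes moved together. The cell cycle genes homology region (CHR) is an element bound by MuvB complexes in promoters of genes that peak in G2 and mitosis, and it often lies near a CCAAT box, which NF-Y binds. RefSeq promoter windows (GRCh38.p14), which run from 250 bases before to 50 after a gene's start, matched 34 of the 42 genes by symbol, among them all 14 mitotic, 12 transport and 8 other genes. The CHR forms TTTGAA and TTCGAA and the box CCAAT were searched on both strands. TTTGAA or TTCGAA was found for 11 of the 14 mitotic, 1 of the 12 transport and 1 of the 8 other genes, and for 19.5% of the 27305 genes with a window. CCAAT was found for 11 of the 14 mitotic, 4 of the 12 transport and 3 of the 8 other genes, and for 39.7% of all. Both were present for 10 of the 14 mitotic genes and for 7.85% of all. The 14 include KIF2B and KIF4B, which had almost no reads, and KIF4B, a copy of KIF4A, is among those with both. No CCAAT match overlapped a CHR match in these genes. These are letter matches, not measured sites.

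The stretches before the start that hold a CHR form are shown for 6 mitotic genes, from base -80 to base -1 (5′ to 3′ on the gene's strand), with CHR and CCAAT matches, in either reading direction, in capitals.
KIF23: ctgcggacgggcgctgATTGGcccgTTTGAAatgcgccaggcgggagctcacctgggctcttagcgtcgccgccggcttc
KIF4A: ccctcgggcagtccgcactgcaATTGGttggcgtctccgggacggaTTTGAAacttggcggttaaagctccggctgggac
KIF11: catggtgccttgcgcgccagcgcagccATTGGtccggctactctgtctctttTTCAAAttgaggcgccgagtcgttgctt
KIF15: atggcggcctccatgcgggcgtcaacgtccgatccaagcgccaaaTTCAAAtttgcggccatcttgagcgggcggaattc
KIF18A: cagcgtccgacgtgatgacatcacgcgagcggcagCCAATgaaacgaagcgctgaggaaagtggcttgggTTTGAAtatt
KIF22: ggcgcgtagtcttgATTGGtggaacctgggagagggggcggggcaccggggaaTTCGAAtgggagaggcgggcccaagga

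These stretches are at chr15:69414269-69414348 for KIF23, chrX:70290024-70290103 for KIF4A, chr10:92593050-92593129 for KIF11, chr3:44761714-44761793 for KIF15 and chr16:29790671-29790750 for KIF22, all on the plus strand, and at chr11:28108157-28108236 on the minus strand for KIF18A. In KIF23 a CCAAT box (read as ATTGG) precedes the CHR form, and the same order holds in KIF4A, KIF11, KIF18A and KIF22. KIF15 holds the CHR form alone.

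In KIF14, KIFC1, KIF18B and KIF24 the CHR form begins within the first bases after the start, at base 2, 5, 3 and 2 in that order, and in KIF20B it occurs at bases 25 and 31. For these genes 30 bases that hold it are shown, with the same use of capitals.
KIF14: gCCAATcagaaggcggggcgcccaTTCAAA
KIFC1: gagagtgggtggtggccgttggaaTTCAAA
KIF18B: gcacggtccggcccgcccggctaaTTTGAA
KIF20B: ctggccgccattgTTTGAATTTGAAaacgg
KIF24: gcgcgggccacagcgcgggcgTTCGAActg

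They are at chr1:200620745-200620774 (KIF14, minus strand), chr6:33391803-33391832 (KIFC1, plus strand), chr17:44947766-44947795 (KIF18B, minus strand), chr10:89701601-89701630 (KIF20B, plus strand) and chr9:34329259-34329288 (KIF24, minus strand). KIF24 is the gene of the other class with a CHR form among the 8 with a window. Its RefSeq start lies outside the interval that the deposited table gives for the gene, which ends at 34311371. The starts of KIF11, KIF14, KIF18B and KIF20B also lie outside their intervals, but much nearer to them. KIF4B, whose stretch is not shown, held TTTGAA at base 4.

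Among the mitotic genes, KIF20A, KIF2C and KIF2B had neither of the searched CHR forms in the window, which says only that these letters are absent from it. Other forms of the element were not searched. KIF20A, the gene with the largest decrease of the family, held CCAAT matches at bases -94 and -67, within chr5:138179002-138179111 (plus strand). The transport motor KIF5B, also lower after the combination, held TTTGAA farther from its start, at base -140, within chr10:32056475-32056575 (minus strand). Both stretches are shown for comparison, KIF20A from base -110 to -1 and KIF5B from base -150 to -50.
KIF20A: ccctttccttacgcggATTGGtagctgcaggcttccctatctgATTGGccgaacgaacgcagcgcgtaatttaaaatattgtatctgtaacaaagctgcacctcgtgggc
KIF5B: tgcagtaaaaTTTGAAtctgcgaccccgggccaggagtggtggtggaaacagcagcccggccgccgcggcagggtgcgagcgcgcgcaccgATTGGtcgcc

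Of 10 tested genes in a list of FOXM1 and MuvB cell cycle regulators, 8 were lower and 1 was higher, where 41% of all genes tested were lower and 36.9% higher. LIN9, among the lower ones, passed the filter only through the DMSO samples, so its direction was fixed by it. RBL2 (p130), a pocket protein of the DREAM complex, was not called (log2 fold change -0.03, limma adjusted p = 0.618). RBL1, TFDP1, LIN9, LIN52, LIN54 and RBBP4 were called lower, with log2 fold changes from -1.83 for RBL1 to -0.68 for RBBP4. The regulators with the smallest p were MYBL2 (B-MYB), at 3.88 ± 0.326 FPKM after the combination against 73.9 ± 2.66 FPKM in DMSO, and FOXM1, at 1.66 ± 0.285 FPKM after the combination and 39.7 ± 1.52 FPKM in DMSO (SD, n = 4 each). E2F4, a repressor subunit of the DREAM complex, was the gene called higher, by a log2 fold change of 0.12, and that call was not made with every scaling. LIN37 was below the filter.

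Partners of the mitotic kinesins fell with them. All 12 tested of the 13 listed genes were lower (median log2 fold change -2.64), where 41% of all genes tested were; CENPE, CIT, HMMR and NUSAP1 passed the filter only through the DMSO samples. CENPE, a kinesin that carries chromosomes to the spindle equator, stood at 0.550 ± 0.0251 FPKM after the combination and at 9.89 ± 0.707 FPKM in DMSO (log2 fold change -2.81 ± 0.0548 SE, limma adjusted p = 1.61e-10). The smallest p-values were those of ANLN, the cytokinesis scaffold anillin (3.16 ± 0.248 FPKM after the combination against 53.1 ± 2.28 FPKM in DMSO), and RACGAP1, which joins KIF23 in centralspindlin (3.39 ± 0.237 FPKM after the combination against 33.6 ± 1.04 FPKM in DMSO). The plus-end protein MAPRE1 changed least, by a log2 fold change of -0.29. PRC1, a central spindle bundler that works with KIF4A, was below the filter, at 0.103 FPKM after the combination and 0.667 FPKM in DMSO on average.

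**Figure D3:**
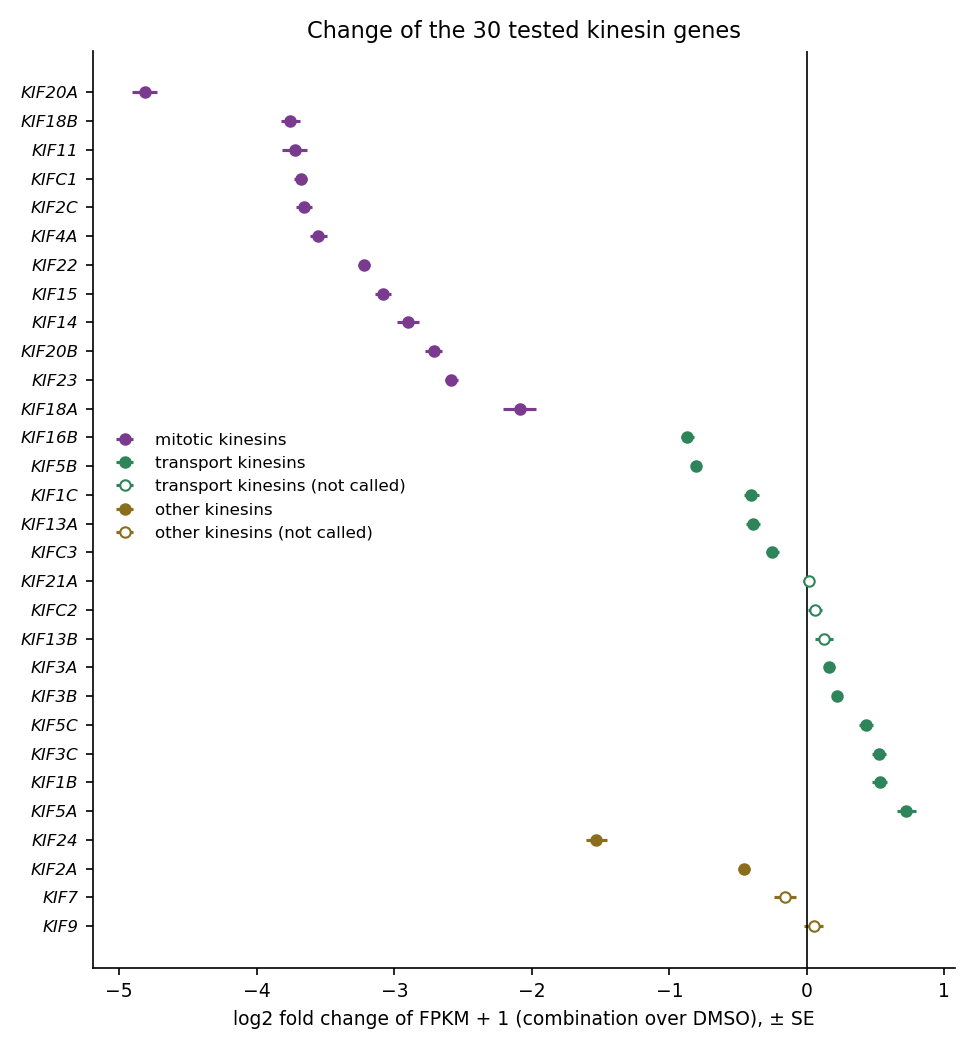
Log2 fold change of FPKM + 1 (combination over DMSO) for the 30 tested kinesin genes, with SE from limma, grouped by class; open points were not called. The 12 mitotic genes lie between -4.82 and -2.09 and the 14 transport genes between -0.87 and 0.72.

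Kinesin-1, the main cargo motor of most cells, differed between the groups in the makeup of its heavy chain transcripts. KIF5B, its ubiquitous heavy chain (chromosome 10, 32009010 to 32056431, minus strand), stood at 25.4, 26.4, 25.2 and 25.9 FPKM after the combination, against 43.3, 47.7, 47.4 and 44.7 FPKM in DMSO. All 4 treated samples were lower than all controls (log2 fold change -0.81 ± 0.0372 SE, limma adjusted p = 4.13e-08). The neuronal heavy chain KIF5A (chromosome 12, 57549998 to 57586632) had 4.35, 5.39, 4.74 and 5.48 FPKM after the combination and 2.57, 2.49, 2.58 and 2.85 FPKM in DMSO, which was the largest increase among tested members (log2 fold change 0.72 ± 0.0693 SE, limma adjusted p = 8.02e-06). KIF5C, also abundant in neurons (chromosome 2, 148875250 to 149026759), had 4.57, 4.13, 4.54 and 4.95 FPKM after the combination, against 3.05, 3.28, 3.01 and 3.10 FPKM in DMSO, again with the groups apart (limma adjusted p = 4.66e-05). KIF5B thus made up 73.0% ± 1.17 of summed kinesin-1 heavy chain FPKM after the combination and 88.9% ± 0.559 in DMSO (SD, n = 4 each), and the sum was 35.3 ± 1.04 FPKM after the combination and 51.5 ± 2.09 FPKM in DMSO.

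Kinesin-2, which drives transport into cilia and along axons, was higher in its 3 KIF3 motor genes. KIF3B (chromosome 20, 32277664 to 32335011) had 15.8, 16.3, 16.5 and 17.4 FPKM after the combination, against 14.4, 13.5, 14.1 and 14.0 FPKM in DMSO. The difference was small but the groups did not overlap (log2 fold change 0.22 ± 0.0366 SE, limma adjusted p = 0.000383). Its partner KIF3A stood at 8.39, 9.002, 8.94 and 8.68 FPKM after the combination and at 7.18, 7.75, 7.99 and 7.90 FPKM in DMSO (limma adjusted p = 0.00486). KIF3C, an alternative partner of KIF3A in neurons, rose most, to 9.06, 9.05, 8.77 and 10.2 FPKM, against 6.32, 5.74, 6.14 and 6.30 FPKM in DMSO. The adaptor KIFAP3, which links the KIF3 motor to cargo, was higher too, at 14.7 ± 0.586 FPKM after the combination against 10.8 ± 0.256 FPKM in DMSO (SD, n = 4 each; limma adjusted p = 4.08e-06).

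Kinesin-3 motors, which carry vesicles, went both ways. KIF1B, a carrier of mitochondria and synaptic vesicle precursors, had 5.09, 5.01, 4.48 and 5.27 FPKM after the combination, against 3.01, 3.17, 3.07 and 3.27 FPKM in DMSO (log2 fold change 0.53 ± 0.0513 SE, limma adjusted p = 8.68e-06). KIF1C, a ubiquitous relative on chromosome 17 (4997948 to 5028401), had 10.9, 11.0, 10.4 and 10.5 FPKM after the combination and 14.2, 13.2, 15.9 and 14.7 FPKM in DMSO (log2 fold change -0.40 ± 0.0520 SE, limma adjusted p = 6.63e-05). Of the summed FPKM of KIF1A, KIF1B and KIF1C, KIF1C made up 68.0% ± 1.40 after the combination, against 82.2% ± 1.36 in DMSO (SD, n = 4 each). KIF16B, which moves early endosomes, showed the largest decrease of the transport class, at 2.39, 2.72, 2.48 and 2.48 FPKM after the combination and 5.68, 5.40, 5.18 and 5.44 FPKM in DMSO. Its mean FPKM was 2.15-fold lower, while its log2 fold change with the pseudocount was -0.87 ± 0.0461 (SE, limma adjusted p = 1.10e-07). KIF13A, a motor of endosomes and melanosomes, was lower (5.01 ± 0.373 FPKM after the combination against 6.89 ± 0.295 FPKM in DMSO, limma adjusted p = 7.70e-05). Its relative KIF13B had overlapping groups (4.29 ± 0.438 FPKM after the combination against 3.84 ± 0.195 FPKM in DMSO, limma adjusted p = 0.101).

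Of the remaining transport members above the filter, KIFC3, a motor of epithelial junctions and Golgi positioning, was lower (11.4 ± 0.508 FPKM after the combination against 13.8 ± 0.719 FPKM in DMSO, limma adjusted p = 0.000689). KIFC2, known from axons, had 13.7, 12.9, 13.7 and 12.98 FPKM after the combination and 11.9, 12.9, 12.2 and 14.1 FPKM in DMSO, with overlapping groups (log2 fold change 0.06 ± 0.0526 SE, limma adjusted p = 0.322). The exons of FOXH1 on the opposite strand cover 17.8% of the exon length of KIFC2. KIF21A, which also restrains microtubule growth, stood at 5.55 ± 0.193 FPKM after the combination and 5.49 ± 0.218 FPKM in DMSO (limma adjusted p = 0.766). Under other scalings some of these calls changed: KIF13B and KIFC2 were called higher with upper-quartile factors and with quantile normalization, and KIF21A with quantile normalization. KIF13B was also called higher without combination replicate 2, and KIFC2 without DMSO replicate 4.

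**Figure D4:**
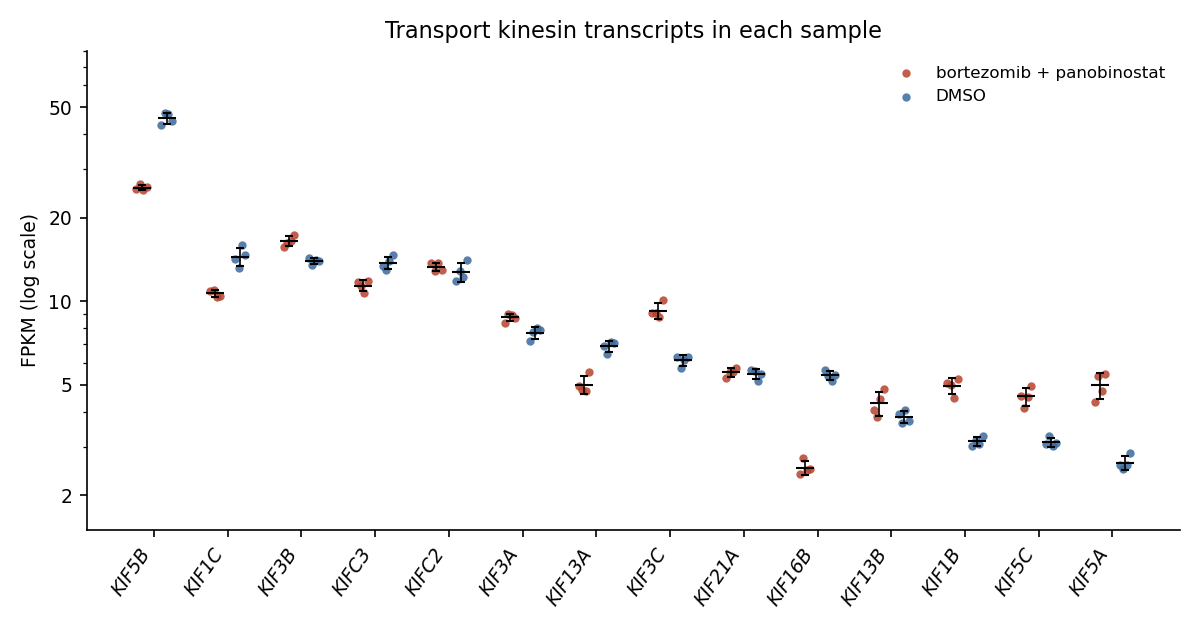
FPKM of the 14 tested transport kinesin genes (log axis), ordered by their DMSO mean, with 4 points per group for the combination (left of each pair) and DMSO (right); bars give mean ± SD. KIF5B is lower at 25.2 to 26.4 FPKM against 43.3 to 47.7 FPKM, while KIF5A is higher at 4.35 to 5.48 FPKM against 2.49 to 2.85 FPKM.

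Among cargo adaptors of the transport kinesins, 10 of 16 tested genes were higher and 4 lower (median log2 fold change 0.41, 18 genes listed), where 36.9% of all genes tested were higher and 41% lower. Counted across 4 other scalings and the deposited one, these numbers were 9 to 12 and 2 to 4. MAPK8IP1 (JIP1), a scaffold carried by kinesin-1, rose to 16.4 ± 0.692 FPKM, against 4.34 ± 0.533 FPKM in DMSO (log2 fold change 1.71 ± 0.0691 SE, limma adjusted p = 1.70e-08), and SPAG9 (JIP4) to 19.2 ± 0.842 FPKM after the combination against 11.8 ± 0.202 FPKM in DMSO. KIF1BP, a kinesin-binding protein first found with KIF1B, fell to 3.26 ± 0.169 FPKM after the combination against 6.48 ± 0.209 FPKM in DMSO. RHOT2 (Miro2), which ties mitochondria to the motor, fell to 20.9 ± 1.33 FPKM after the combination against 31.9 ± 1.21 FPKM in DMSO.

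For the opposing motor, cytoplasmic dynein with dynactin, 7 of 19 tested genes were higher and 6 lower (median log2 fold change 0.03). Over all genes tested, 36.9% were higher and 41% lower, so the share of dynein genes called higher was near the background. The heavy chain DYNC1H1 rose to 24.5 ± 1.04 FPKM after the combination against 14.2 ± 0.511 FPKM in DMSO, and the dynactin subunit ACTR1B to 27.2 ± 1.21 FPKM after the combination against 18.2 ± 0.579 FPKM in DMSO. The light chain DYNLL1 fell to 33.3 ± 2.72 FPKM after the combination against 60.2 ± 3.05 FPKM in DMSO, and the largest dynactin subunit, DCTN1, to 14.0 ± 0.489 FPKM after the combination against 18.3 ± 0.663 FPKM in DMSO.

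Among the 4 tested genes of the other class, 2 were lower, where 41% of all genes tested were. The direction of KIF24, among these, was fixed by the filter. KIF24, which acts at centrioles and holds back the growth of cilia, had 0.289, 0.267, 0.157 and 0.143 FPKM after the combination, against 2.57, 2.39, 2.51 and 2.54 FPKM in DMSO. The treated samples held 8.55% of the DMSO mean, inside the span of the mitotic genes (log2 fold change -1.53 ± 0.0742 SE, limma adjusted p = 5.90e-08). KIF2A, a depolymerase of spindle poles and of neuronal growth (chromosome 5, 62306162 to 62537249), had 9.30, 9.07, 8.36 and 9.05 FPKM after the combination and 13.1, 12.2, 12.03 and 13.3 FPKM in DMSO. Although KIF2A works in mitosis too, it kept 70.6% of its DMSO mean (log2 fold change -0.46 ± 0.0452 SE, limma adjusted p = 9.73e-06). KIF7, a regulator of Hedgehog signalling in cilia, had 9.26, 7.45, 9.46 and 8.74 FPKM after the combination, against 9.04, 9.35, 10.1 and 11.0 FPKM in DMSO, with overlapping groups (log2 fold change -0.16 ± 0.0781 SE, limma adjusted p = 0.0880). KIF7 was called lower with library totals and with voom. KIF9, a motor of motile cilia, had overlapping groups too (1.37 ± 0.0193 FPKM after the combination against 1.29 ± 0.143 FPKM in DMSO, limma adjusted p = 0.536).

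The 12 members below the filter were few in reads, and several were higher after the combination. KIF21B, a neuronal relative of KIF21A, had 267, 272, 259 and 262 reads after the combination and 44, 26, 66 and 38 reads in DMSO. Per library total the pooled reads were 5.97 times as many, with a 95% exact interval of 5.08 to 7.05 that covers counting error only, as do the intervals below. KIF12, known from kidney and liver epithelium, had 44, 68, 58 and 66 reads after the combination and 5, 1, 4 and 1 reads in DMSO, a ratio of 21.0 (11.5 to 42.7). KIF17, a dendritic motor, had 46, 36, 17 and 36 reads after the combination and 13, 6, 5 and 9 reads in DMSO, a ratio of 4.01 (2.72 to 6.06). In each of these 3 genes the lowest treated sample was above the highest control.

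KIF1A, the synaptic vesicle motor of neurons, had 23, 18, 19 and 23 reads after the combination and 0, 1, 0 and 1 reads in DMSO. The pooled ratio of 40.7 has an interval of 10.9 to 342, and the level after the combination was still only 0.0781 ± 0.0125 FPKM. KIF19, a length regulator of motile cilia, had 6, 8, 4 and 5 reads after the combination and 1, 0, 0 and 0 reads in DMSO (ratio 22.5, 3.66 to 929). KIF26B, an atypical member linked to Wnt signalling, went the other way, with 65, 48, 77 and 54 reads after the combination and 169, 161, 134 and 161 reads in DMSO (ratio 0.383, 0.329 to 0.444). KIF27, a relative of KIF7, had 91, 94, 79 and 85 reads after the combination and 57, 78, 52 and 50 reads in DMSO; 42.4% of its 31-base words occur in other genes.

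In limma without the filter on low values, where 20% of 38736 genes were called higher and 16.5% lower, 6 of these 12 genes were called higher (KIF21B, KIF12, KIF17, KIF27, KIF1A and KIF19). KIF26B was the gene called lower. KIF6 had 18 to 38 reads after the combination and 15 to 24 in DMSO, with overlapping groups, and KIF26A had at most 3 reads in any sample. KIF25 had no read in any sample. For its exon length of 3466 bases, 3 reads would be 0.0498 to 0.0568 FPKM, about the 95% upper limit for a count of 0 in a sample.

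**Figure D5:**
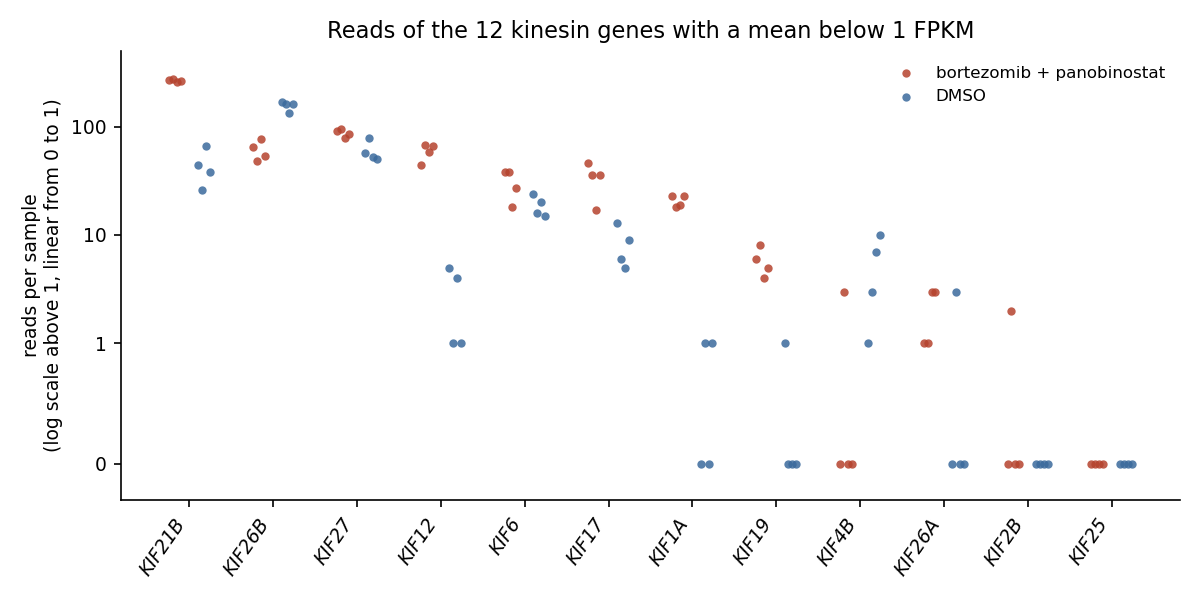
Reads per sample of the 12 kinesin genes with a mean below 1 FPKM, with 4 points per group for the combination (left of each pair) and DMSO (right); the axis is logarithmic above 1 read and linear from 0 to 1. KIF21B has 259 to 272 reads after the combination against 26 to 66 in DMSO, and KIF1A 18 to 23 against 0 to 1.

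Neuron markers differed between the groups as well. Of the 13 listed, 7 were tested and called higher, where 36.9% of all genes tested were higher. SYP, NEFL and STMN2 passed the filter only through the combination samples, so their direction was fixed by it. The list summed to 54.6 to 58.1 FPKM after the combination, against 16.6 to 18.1 FPKM in DMSO. The synaptic vesicle protein SYP reached 16.98 ± 1.06 FPKM after the combination against 0.245 ± 0.0567 FPKM in DMSO, and the dendritic protein MAP2 15.5 ± 0.305 FPKM after the combination against 6.83 ± 0.137 FPKM in DMSO. The neuron-defining genes RBFOX3, DCX, ELAVL3 and ELAVL4 stayed below 1 FPKM in both groups and INA had no read. Among kinesins described above as neuronal or axonal, KIF5A, KIF5C and KIF3C were called higher and KIFC2 was not called. KIF2A, described with neuronal growth, was called lower, and the neuronal or dendritic KIF1A, KIF17 and KIF21B were below the filter. The part of the markers in the kinesin values was not tested.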

How the data were processed

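The authors deposited a table of FPKM values, 58735 genes in 8 columns of 1 sample each, as the file headers show. Bowtie 0.12.2 is listed in the submitters' processing notes, with GRCh37 and mm8 as builds but no role for either; no source used here names the counter. All 58735 identifiers, coordinates and lengths equal GENCODE 29 (GRCh38) and its merged exon lengths, so coordinates are GRCh38. FPKM times length gave whole reads for 100% of nonzero values (within 0.02). The reads that the authors' scaling divided by were 0.954 to 1.00 times the library total after the combination and 1.03 to 1.04 times in DMSO.

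The model was limma 3.58.1 (R 4.3.3) on log2(FPKM + 1), with a mean-variance trend and the group as the only term. Simulated reads with 50 genes per fold gave back 42% of 1.25-fold, 50% of 1.5-fold, 76% of 2-fold and 86% of 4-fold changes. There were 7 false calls among 12880 unchanged genes (13058 in the step). The shares count genes that failed the filter: 43 to 46 of the 50 per fold were tested. Far fewer genes changed in the simulation than in the data, where 77.8% of genes tested were called. Replicates differed beyond counting noise (chi-square per degree of freedom 3.05 to 9.46 over 12 pairs). Whether libraries kept strand is not given, so reads of overlapping antisense genes cannot be told apart. Members, classes and lists were chosen with earlier results of these data known. Every member is reported: in full the tested mitotic genes, the 3 most abundant and the 2-fold changed genes of the other classes; from each list the called genes lowest in p, up to 2 per direction, and CENPE. KIFAP3, MAPRE1, PRC1, LIN37, RBL2, the further lower genes of the FOXM1 and MuvB list, and marker genes were named besides, after their values were seen. Levels are mean ± SD. The alternatives were other scalings, pseudocounts and filters, voom of limma on recovered reads, a replicate block and leaving out each sample. Figures were drawn with matplotlib 3.10.9.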

Additional observations from a re-analysis of the deposited data

Results flagged for a closer look

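In 7 of 109 sets of 4 samples examined, the highest sample stood apart from the others by Dixon's criterion at 95%; chance flags about 1 in 20 sets. In KIF27, DMSO replicate 2 had 0.951 FPKM and the nearest other control 0.638 FPKM. The transport kinesins' share of kinesin FPKM was 31.1% in DMSO replicate 4, with the nearest control at 30.1%. The share of KIF5B was 15.8% in combination replicate 2, with the nearest treated sample at 15.2%. The other 4 sets held reads in a single sample: KIF2B in combination replicate 2 (0.0506 FPKM), KIF4B in combination replicate 2 (0.0401 FPKM), KIF19 in DMSO replicate 1 (0.0102 FPKM) and KIF26A in DMSO replicate 2 (0.0278 FPKM). The causes were not tested.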

How the results depend on the processing

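Of the 30 tested kinesins, 26 kept their direction and side of the threshold under all 18 alternatives; the others were KIF7, KIF13B, KIF21A and KIFC2, not called in the reported fit. The 12 mitotic decreases were called under each. The mitotic median log2 fold change (-3.39) was -3.45 with library totals, -3.32 with upper-quartile factors, -4.19 with a pseudocount of 0.1, -2.19 with a pseudocount of 5, -3.15 without the filter and -4.33 with voom. The transport median (0.09) was 0.031 with library totals, 0.17 with upper-quartile factors, 0.20 with quantile normalization, 0.14 with a minimum mean of 0.1 FPKM and 0.038 with voom. Other kinesins called higher numbered 3 without the filter and 2 with a minimum of 0.1 FPKM, where more genes were tested, against 0 in the reported fit; genes called higher overall numbered 7747 without the filter. Leaving out each sample in turn gave 12 to 12 mitotic genes lower with a median of -3.41 to -3.36, 6 to 7 transport genes higher and 5 to 5 lower with a median of 0.07 to 0.11, 0 to 0 other genes higher and 2 to 2 lower, a difference in mitotic share of -54.7 to -53.9 percentage points, and 4732 to 4805 genes higher and 5294 to 5360 lower overall. With the replicate number as a block, 4839 genes were higher and 5404 lower, and no kinesin call changed. Same-numbered samples did not deviate together (correlations -0.0234 to 0.0672), so the numbers were not taken as pairs. Counting KIF2A as mitotic gave 13 mitotic genes lower. KIF2A kept 70.6% of its DMSO mean (log2 fold change -0.46), so the class would then no longer be lower by at least 2-fold throughout. Depth limits the members with few reads, whose ratios carry wide intervals.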
